A study of Mus musculus with 9 samples.

Results

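The DNA replication and mitosis genes described here are 44 mouse genes whose products copy the genome and then divide it between daughter cells. They were picked by gene name from the deposited annotation, and each of the 44 names matched 1 gene of the 55421 in the count table. All 44 passed the filter on low counts, which kept 15711 genes. The donors were Pmel Ly5.1 mice, whose T cells carry a transgenic receptor for a melanoma antigen, and the cells were their splenic CD8+ T cells. For the MitoPositive group the T cells shared a culture for 36 h with DM5 and were sorted as DsRed-positive, DM5 being a stromal line made immortal from BL6 bone marrow whose mitochondria carry the red protein DsRed. MitoNegative cells were sorted as DsRed-negative from such a co-culture. Monoculture cells had no stromal partner. All 3 groups share the Pmel Ly5.1 background, DM5 is 1 line, and each group had 3 libraries, lettered B, C and D in the sample titles. The titles also carry a time of 0 h that the labels do not explain. The labels do not say whether a letter is 1 mouse or 1 culture, so p-values measure the spread between these libraries, which may be technical.

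A cell that enters the cycle first loads the MCM helicase on its replication origins with the help of Cdc6 and Cdt1. In S phase it fires those origins with Cdc45 and the GINS complex and feeds the polymerases with nucleotides made by ribonucleotide reductase and thymidylate synthase. It then builds cyclin B with Cdk1, condenses its chromosomes with condensin and topoisomerase, and pulls them apart on a spindle under the control of Plk1, the Aurora kinases and the Bub1 checkpoint. Resting CD8+ T cells express this machinery weakly until they are activated. Replication genes are textbook targets of E2F factors, and mitosis genes are textbook targets of the MuvB complex with B-Myb and FoxM1, which acts through a short element called the CHR, often beside CCAAT boxes.

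Promoter sequences are shown first, with the matches to these elements that they hold. RefSeq promoters on GRCm38.p6 were matched by symbol for 35 of the 44 genes, 36 promoters in all, each with 250 bases before the start of transcription and 50 after it. The E2F letters searched were TTTCCCGC, TTTCGCGC, TTTGCCGC and TTTGGCGC. The CHR letters were TTTGAA and TTCGAA, and the last motif was CCAAT, all on both strands and with overlaps allowed. An E2F match was present in 25% of the member promoters and in 2.26% of all 32851 promoters of the table. A CHR match was present in 50% of the member promoters and in 19.2% of all promoters. CCAAT was present in 77.8% of the member promoters and in 37.4% of all promoters. Of the 10 promoters of helicase genes, 6 held an E2F match and 3 a CHR match, and of the 5 of clamp and nucleotide genes 0 held either. Of the 11 promoters of kinase, checkpoint and spindle genes, 0 held an E2F match and 8 a CHR match. Of the 6 of chromosome structure genes 2 held an E2F match and 5 a CHR match, and of the 4 of cyclins and Cdk1 1 held an E2F match and 2 a CHR match. A match describes the letters in this window and does not show that a factor binds there.

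The 160 bases before the start are given for a pair of helicase genes, Mcm5 at chr8:75109349-75109508 on the plus strand and Mcm6 at chr1:128359706-128359865 on the minus strand. They are also given for Cdk1 at chr10:69352913-69353072 on the minus strand, Cdc20 at chr4:118437344-118437503 on the minus strand, Kif11 at chr19:37376222-37376381 on the plus strand and Mki67 at chr7:135716380-135716539 on the minus strand. Each runs 5′ to 3′ along the gene's own strand, with every match to the E2F, CHR or CCAAT letters in capitals. A match on the other strand appears as its reverse complement, so that CCAAT reads ATTGG and the CHR reads TTCAAA, and the 12 capitals near the far end of Mcm5 and in the first part of Mcm6 are a pair of overlapping E2F matches on opposite strands.
Mcm5: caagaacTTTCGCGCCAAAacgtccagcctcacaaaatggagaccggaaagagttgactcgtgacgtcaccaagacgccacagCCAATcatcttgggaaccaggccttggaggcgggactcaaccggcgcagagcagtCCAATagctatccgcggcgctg
Mcm6: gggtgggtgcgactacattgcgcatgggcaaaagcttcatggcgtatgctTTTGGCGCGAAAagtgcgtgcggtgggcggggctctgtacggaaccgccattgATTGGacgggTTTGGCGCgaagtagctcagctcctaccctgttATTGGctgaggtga
Cdk1: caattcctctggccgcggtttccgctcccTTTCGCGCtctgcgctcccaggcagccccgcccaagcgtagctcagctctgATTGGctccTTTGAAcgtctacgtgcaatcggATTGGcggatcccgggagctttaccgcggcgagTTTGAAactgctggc
Cdc20: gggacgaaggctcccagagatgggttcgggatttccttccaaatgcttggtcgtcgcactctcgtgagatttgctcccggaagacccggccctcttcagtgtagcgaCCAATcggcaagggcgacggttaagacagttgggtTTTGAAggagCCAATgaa
Kif11: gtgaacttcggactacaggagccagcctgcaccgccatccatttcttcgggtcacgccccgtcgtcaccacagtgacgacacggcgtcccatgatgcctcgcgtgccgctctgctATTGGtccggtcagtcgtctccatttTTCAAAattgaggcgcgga
Mki67: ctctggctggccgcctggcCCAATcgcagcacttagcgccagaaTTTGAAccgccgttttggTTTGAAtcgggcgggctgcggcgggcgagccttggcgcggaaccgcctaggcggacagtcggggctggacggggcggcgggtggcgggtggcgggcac
Both helicase promoters hold E2F matches and no CHR, with the nearest E2F match 47 bases before the start in Mcm6. Those of Cdc20, Kif11 and Mki67 hold a CHR and CCAAT but no E2F match, and the CHR of Cdc20 begins 18 bases before the start and that of Kif11 19. The Cdk1 promoter holds all 3 motifs.

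The libraries held 53546152 to 74722832 counts, and the members took 0.210% to 0.431% of them. Levels are given as CPM, read counts relative to library size with edgeR's trimmed mean of M-values as the scale. The 8 CD8 T cell markers summed to 7788 to 8151 CPM in MitoPositive libraries, 7590.4 to 7838 CPM in MitoNegative libraries and 8038 to 9189 CPM in monoculture libraries. Against monoculture 4 of the 8 were lower in MitoPositive and 5 in MitoNegative cells by group, and 0 were higher. Of all genes tested 19.9% and 18.3% were lower, and 22.3% and 20.6% were higher. The 19 stromal markers left after Thy1, which T cells express, summed to 16.5 to 43.2 CPM in MitoPositive libraries and 16.6 to 45.7 CPM in MitoNegative libraries. In monoculture libraries they summed to 1.08 to 1.69 CPM. Of the 17 that passed the filter 16 were higher in each co-cultured group than in monoculture, beside 22.3% and 20.6% of all genes. Several, such as Sparc, Lox and Col1a2, had 0 CPM in monoculture. Those could pass the filter only through the co-cultured groups, so this count is description and not a test. The 7 B cell markers summed to 276 to 307 CPM in MitoPositive libraries, 365 to 458 CPM in MitoNegative libraries and 676 to 749 CPM in monoculture libraries. Ighm made up most of this sum, with means of 271, 388 and 630 CPM in MitoPositive, MitoNegative and monoculture libraries. Of the 7, 5 were lower in each co-cultured group than in monoculture, where 19.9% and 18.3% of all genes were. The 5 natural killer cell markers summed to 7.95 to 9.82 CPM in MitoPositive libraries, 11.3 to 17.0 CPM in MitoNegative libraries and 15.1 to 24.3 CPM in monoculture libraries. Eomes made up most of this sum, with means of 7.60, 10.3 and 15.8 CPM in the same order. Klre1 had means of 1.23, 2.92 and 2.12 CPM, and Klrb1c, Ncr1 and Klra8 had means of at most 0.336 CPM in any group. The 8 myeloid markers reached at most 8.42 CPM, with S100a8 and S100a9 at 0, and the 3 CD4 T cell markers at most 3.87 CPM. The part of such cells in the results on the members was not tested. In bulk RNA, fewer cells in cycle and less RNA per cell cannot be told apart.

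Mitosis genes were well below monoculture in T cells from the stromal co-culture, in the DsRed-positive and in the DsRed-negative sort. Replication genes, as a sum, were below it by less. The 14 kinase, checkpoint and spindle genes together stood at 55.7, 83.5 and 209.6 CPM in MitoPositive libraries B, C and D, at 67.2, 117 and 202 CPM in MitoNegative libraries and at 171, 336 and 425 CPM in monoculture libraries. Within every letter both co-cultured sums were below the monoculture sum, but the D libraries of both co-cultured groups lay above the B library of monoculture. The 17 helicase, clamp and nucleotide genes together stood at 719, 816 and 794 CPM in MitoPositive libraries, at 668, 749.5 and 736 CPM in MitoNegative libraries and at 784, 973 and 1055 CPM in monoculture libraries. Their co-cultured sums were also below monoculture within every letter, by a smaller share, but single genes differed. In MitoPositive libraries 9 of the 17 were lower than monoculture in 3 of 3 letters, 0 were higher and 8 were mixed. In MitoNegative libraries 13 were lower, 1 was higher and 3 were mixed. Of all genes, 31.7% and 29.7% were lower in 3 of 3 letters. The heat map of all members shows both gradients, between groups and between letters.

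**Figure D1:**
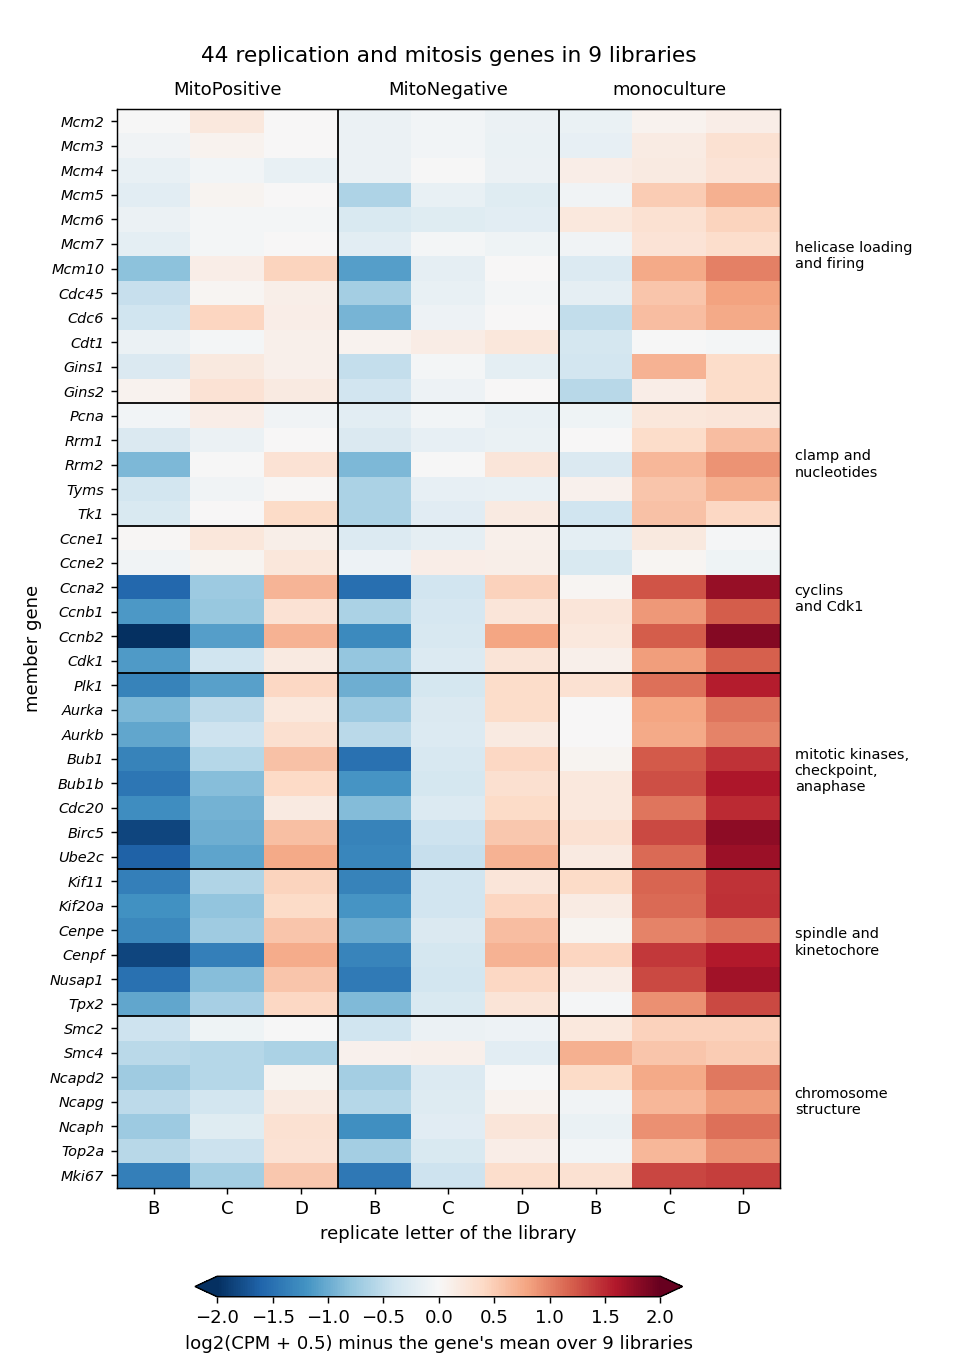
Each row is 1 of the 44 member genes, ordered by role, and each column is 1 of the 9 libraries, by group and letter. Colour is log2(CPM + 0.5) minus the gene's mean over the 9 libraries, and within each group the 14 mitosis genes have letter B lowest and letter D highest.

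Of the 44 genes, edgeR's quasi-likelihood test with Benjamini-Hochberg adjustment over all genes called 7 lower in MitoPositive cells than in monoculture cells, where 19.9% of all genes tested were called lower, and 0 higher, where 22.3% were. At an unadjusted p under 0.05 the number was 15 of the 44, beside 7835 of the 15711 genes tested. Fitting the letter as a block gave 34 lower and 0 higher, against 23.0% and 24.8% of all genes. In MitoNegative cells against monoculture the fit by group called 10 members lower and 1 higher, where 18.3% and 20.6% of all genes were called. With the letter as a block 38 were lower and 1 was higher, against 21.5% and 23.5% of all genes. Both comparisons use the same monoculture libraries, so they are not independent of each other. Within letters, 34 members were lower in MitoPositive than in monoculture libraries in 3 of 3 letters, as were 31.7% of all genes, and 38 were lower in MitoNegative than in monoculture libraries in 3 of 3 letters, as were 29.7% of all genes. The median log2 fold change over the 44 genes by group was -0.84 in MitoPositive cells and -0.83 in MitoNegative cells, beside 0.00 and 0.01 over all genes tested.

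**Figure D2:**
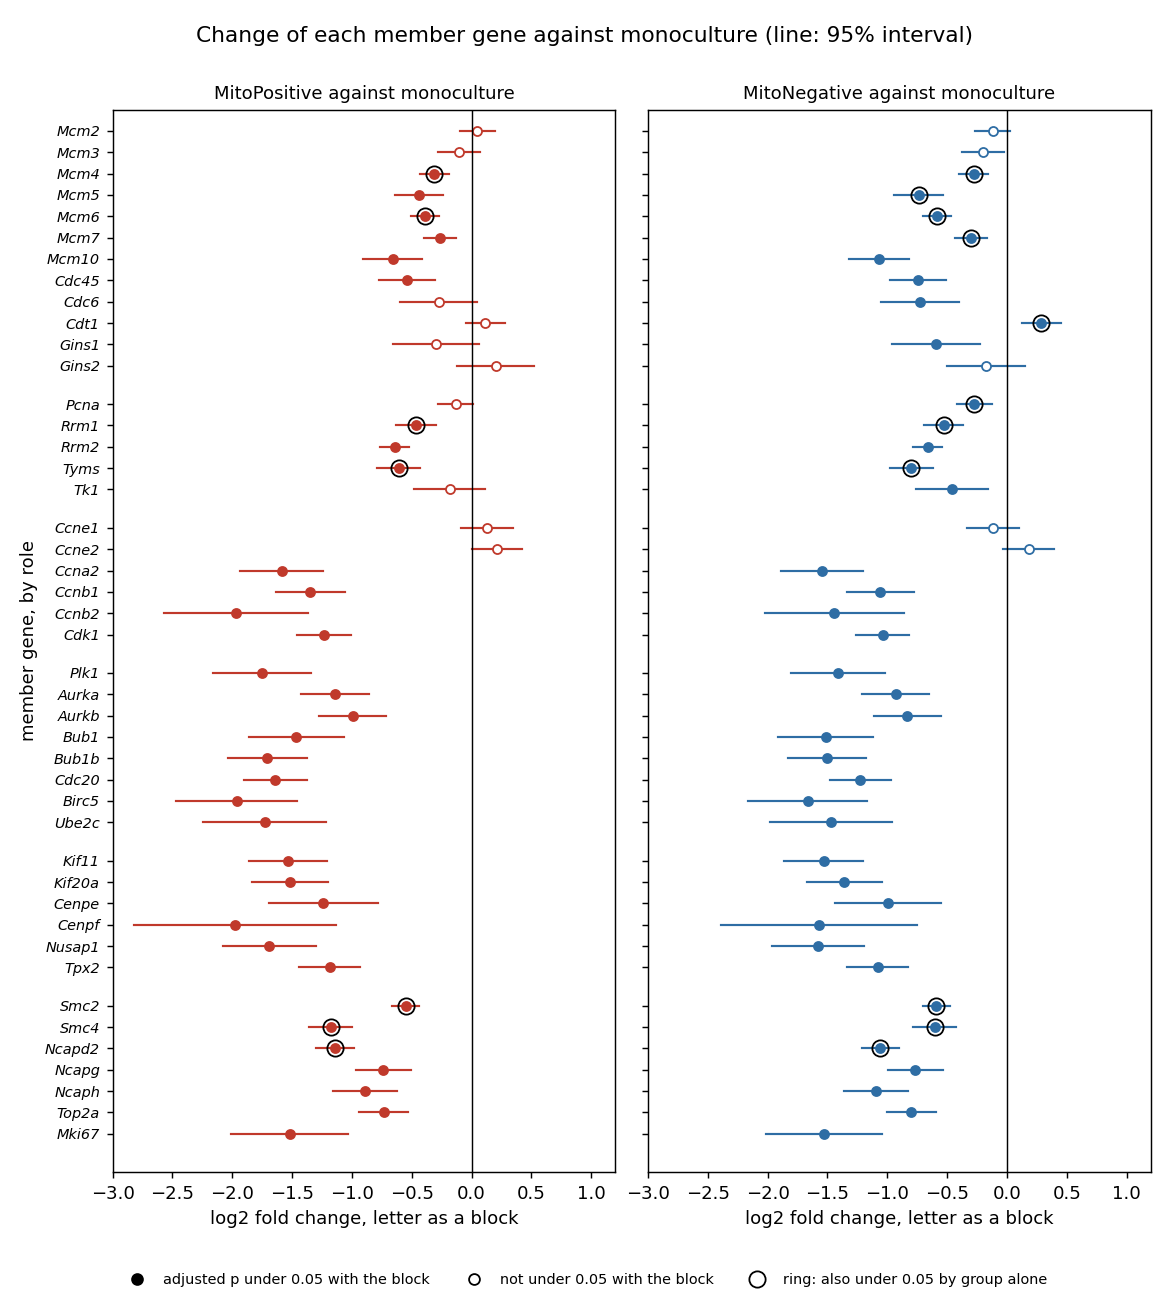
Points are log2 fold changes of the 44 member genes against monoculture in the fit with the letter as a block, MitoPositive on the left and MitoNegative on the right, with 95% intervals as lines. Filled points have an adjusted p under 0.05 in that fit and rings mark genes also called by group alone, and the 14 mitosis genes lie between -1.98 and -0.83.

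The calls by group moved with single libraries. In MitoPositive cells against monoculture the 7 calls became 4 without the B library of MitoPositive, 20 without its D library and 16 without the B library of monoculture, and 17, 4 and 16 without letters B, C and D. In MitoNegative cells against monoculture the 11 calls became 7 without the B library of MitoNegative, without its D library, or without the C or D library of monoculture, and 20 and 4 without letters B and C. The fits with the letter as a block, each with 1 letter left out, gave 33 to 36 calls in MitoPositive and 36 to 39 in MitoNegative cells, and 2 of those in MitoPositive cells without letter D, Mcm2 and Gins2, were higher.

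Among the 12 genes that load and fire the helicase, 2 were called lower in MitoPositive cells by group and 6 with the block. Of all genes, 19.9% and 23.0% were. In MitoNegative cells 4 were lower by group and 8 with the block, where 18.3% and 21.5% of all genes were. There 1 was higher in both fits, beside 20.6% of all genes by group and 23.5% with the block. Mcm2, a subunit of the helicase ring, stood at 62.1, 72.6 and 62.7 CPM in MitoPositive libraries, at 57.6, 60.1 and 57.8 CPM in MitoNegative libraries and at 57.0, 65.3 and 68.9 CPM in monoculture libraries. The MitoPositive and monoculture values overlapped, and Mcm2 passed against monoculture neither by group nor with the block over the 9 libraries, with log2 fold changes by group of 0.05 ± 0.0794 in MitoPositive cells and -0.12 ± 0.0795 in MitoNegative cells (SE). With letter D left out of the block fit, Mcm2 and Gins2 were called higher in MitoPositive cells, as were 4314 of 15705 genes tested. Mcm6, its neighbour in the ring, stood at 120.4, 127 and 126 CPM in MitoPositive libraries, at 105, 109 and 112 CPM in MitoNegative libraries and at 151, 161 and 177 CPM in monoculture libraries. These 3 groups did not overlap, with monoculture highest and MitoNegative lowest. Mcm6 fell 1.31-fold in MitoPositive cells (log2 -0.39 ± 0.0643, adjusted p = 0.000499) and 1.5-fold in MitoNegative cells (log2 -0.59 ± 0.0645, adjusted p = 3.81e-05).

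Mcm4 also fell by group in both sorts, with log2 fold changes of -0.31 ± 0.0589 in MitoPositive cells and -0.28 ± 0.0589 in MitoNegative cells. Mcm5 and Mcm7, also subunits of the ring, fell by group in MitoNegative cells (-0.75 ± 0.207 and -0.31 ± 0.102) and with the block in both sorts. Mcm3 passed neither fit over the 9 libraries in either comparison. The helicase gene with the largest fold change was Mcm10, a scaffold that helps the helicase to fire. Mcm10 stood at 1.69, 3.73 and 4.76 CPM in MitoPositive libraries, at 1.31, 2.92 and 3.39 CPM in MitoNegative libraries and at 2.69, 6.04 and 7.30 CPM in monoculture libraries. The groups overlapped, with letter B lowest in each. It passed no test by group (adjusted p = 0.344 and 0.145) and fell with the block, with log2 fold changes of -0.66 ± 0.111 in MitoPositive cells and -1.07 ± 0.113 in MitoNegative cells (adjusted p = 0.000621 and 3.27e-05).

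Cdc45, the activator of the helicase, fell with the block in both sorts, with log2 fold changes of -0.54 ± 0.105 in MitoPositive cells and -0.75 ± 0.105 in MitoNegative cells. The loader Cdc6 and the GINS subunit Gins1 fell with the block in MitoNegative cells (-0.72 ± 0.146 and -0.59 ± 0.165) and did not pass in MitoPositive cells (-0.28 ± 0.144 and -0.29 ± 0.163). Gins2 passed against monoculture in neither fit over the 9 libraries. Of its exon bases, 67.3% overlap Gse1 on the opposite strand, and the strand setting of the counting is not given in the sources used here.

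Cdt1, the licensing factor that brings the helicase to origins, was the member called higher in the fits over the 9 libraries. Cdt1 stood at 16.0, 16.8 and 18.7 CPM in MitoPositive libraries, at 18.3, 19.4 and 20.4 CPM in MitoNegative libraries and at 13.6, 17.3 and 16.9 CPM in monoculture libraries. All MitoNegative values lay above all monoculture values, and the MitoPositive values overlapped both. Cdt1 rose 1.22-fold in MitoNegative cells (log2 0.28 ± 0.101, adjusted p = 0.0444), and its difference in MitoPositive cells was 0.11 ± 0.101 (adjusted p = 0.415). The call in MitoNegative cells held in 16 of 25 alternative settings, with log2 values of 0.18 to 0.35 and adjusted p up to 0.155. It was lost when both groups were fitted alone, without the C library of MitoPositive, the C or D library of MitoNegative or the B library of monoculture, without any 1 letter by group, and without letter B with the block.

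Of the 5 genes for the sliding clamp and nucleotide supply, 2 were lower by group in MitoPositive cells and 3 in MitoNegative cells. Of all genes, 19.9% and 18.3% were. The block fit called 3 and 5, beside 23.0% and 21.5% of all genes. Pcna, the clamp that holds polymerases on DNA, stood at 139, 157 and 137 CPM in MitoPositive libraries, at 125, 138 and 129.8 CPM in MitoNegative libraries and at 136, 169 and 171 CPM in monoculture libraries. The groups overlapped, with letter B of monoculture inside the co-cultured range. Pcna fell 1.21-fold in MitoNegative cells (log2 -0.28 ± 0.0896, adjusted p = 0.0285), and its value in MitoPositive cells was -0.14 ± 0.0895 (adjusted p = 0.246). Tyms, thymidylate synthase, fell by group, with log2 fold changes of -0.62 ± 0.188 in MitoPositive cells and -0.81 ± 0.189 in MitoNegative cells. Rrm1, the large subunit of ribonucleotide reductase, fell likewise, with -0.48 ± 0.135 in MitoPositive cells and -0.55 ± 0.135 in MitoNegative cells.

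Rrm2, the small subunit of the reductase, stood at 12.4, 23.3 and 29.0 CPM in MitoPositive libraries, at 12.3, 23.5 and 27.8 CPM in MitoNegative libraries and at 19.2, 37.6 and 44.5 CPM in monoculture libraries. Letter B was the lowest in each group. Within letters B, C and D Rrm2 differed from monoculture by log2 -0.60, -0.68 and -0.61 in MitoPositive libraries and -0.61, -0.67 and -0.67 in MitoNegative libraries, a narrow range in each. It passed no test by group (adjusted p = 0.32 and 0.317) and fell with the block (adjusted p = 5.36e-06 and 5.8e-06). Tk1, thymidine kinase, fell with the block in MitoNegative cells (-0.46 ± 0.135) and did not pass in MitoPositive cells (-0.18 ± 0.134). Passing in 1 sort and not in the other does not show that the sorts differ, and their direct comparison is given further on.

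The cyclins divided by their place in the cycle. Ccne1, the cyclin E that starts S phase, stood at 12.5, 14.5 and 13.4 CPM in MitoPositive libraries, at 10.1, 10.9 and 13.3 CPM in MitoNegative libraries and at 10.8, 14.3 and 12.2 CPM in monoculture libraries. These values overlapped throughout, with log2 fold changes of 0.12 ± 0.126 in MitoPositive cells and -0.12 ± 0.126 in MitoNegative cells (adjusted p = 0.473 and 0.496). Ccne2, the other E cyclin, passed no test either, with 0.21 ± 0.132 in MitoPositive cells and 0.18 ± 0.131 in MitoNegative cells. Ccna2, Ccnb1, Ccnb2 and Cdk1, which act from S phase into mitosis, were each lower than monoculture in both sorts within all 3 letters, passed no test by group, and fell with the block in both sorts. The block gave Ccna2, cyclin A, log2 fold changes of -1.59 ± 0.153 in MitoPositive cells and -1.55 ± 0.152 in MitoNegative cells.

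Ccnb1, the main B cyclin, stood at 5.81, 7.81 and 16.5 CPM in MitoPositive libraries, at 8.57, 10.6 and 16.0 CPM in MitoNegative libraries and at 16.1, 25.1 and 32.0 CPM in monoculture libraries. Of the co-cultured libraries, MitoPositive D reached into the monoculture range and the other 5 did not. Ccnb1 fell with the block 2.54-fold in MitoPositive cells (log2 -1.35 ± 0.129, adjusted p = 1.37e-05) and 2.08-fold in MitoNegative cells (log2 -1.06 ± 0.127, adjusted p = 8.42e-05). Its test by group gave adjusted p = 0.0666 and 0.119. Cdk1, the kinase that cyclin B activates, stood at 2.85, 5.12 and 7.89 CPM in MitoPositive libraries, at 3.84, 5.60 and 8.30 CPM in MitoNegative libraries and at 7.46, 12.6 and 16.3 CPM in monoculture libraries. Its means were 5.29 ± 2.53 CPM in MitoPositive, 5.91 ± 2.25 CPM in MitoNegative and 12.1 ± 4.46 CPM in monoculture libraries (SD, n = 3 each), and the D libraries of both sorts lay above the B library of monoculture. With the block Cdk1 fell 2.36-fold in MitoPositive cells (log2 -1.24 ± 0.101, adjusted p = 3.93e-06) and 2.06-fold in MitoNegative cells (log2 -1.04 ± 0.1, adjusted p = 1.66e-05).

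Ccnb2, the second B cyclin, stood at 1.56, 3.51 and 13.3 CPM in MitoPositive libraries, at 3.05, 6.37 and 14.3 CPM in MitoNegative libraries and at 9.44, 19.3 and 30.0 CPM in monoculture libraries. The D libraries were again the highest of each group. Within letters B, C and D Ccnb2 differed from monoculture by log2 -2.27, -2.30 and -1.14 in MitoPositive libraries and -1.49, -1.52 and -1.04 in MitoNegative libraries. The difference was smallest in letter D of both sorts, and the plots of CPM by library show the same order of letters for Mki67, Ccnb1, Cdk1 and Cdc20.

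**Figure D3:**
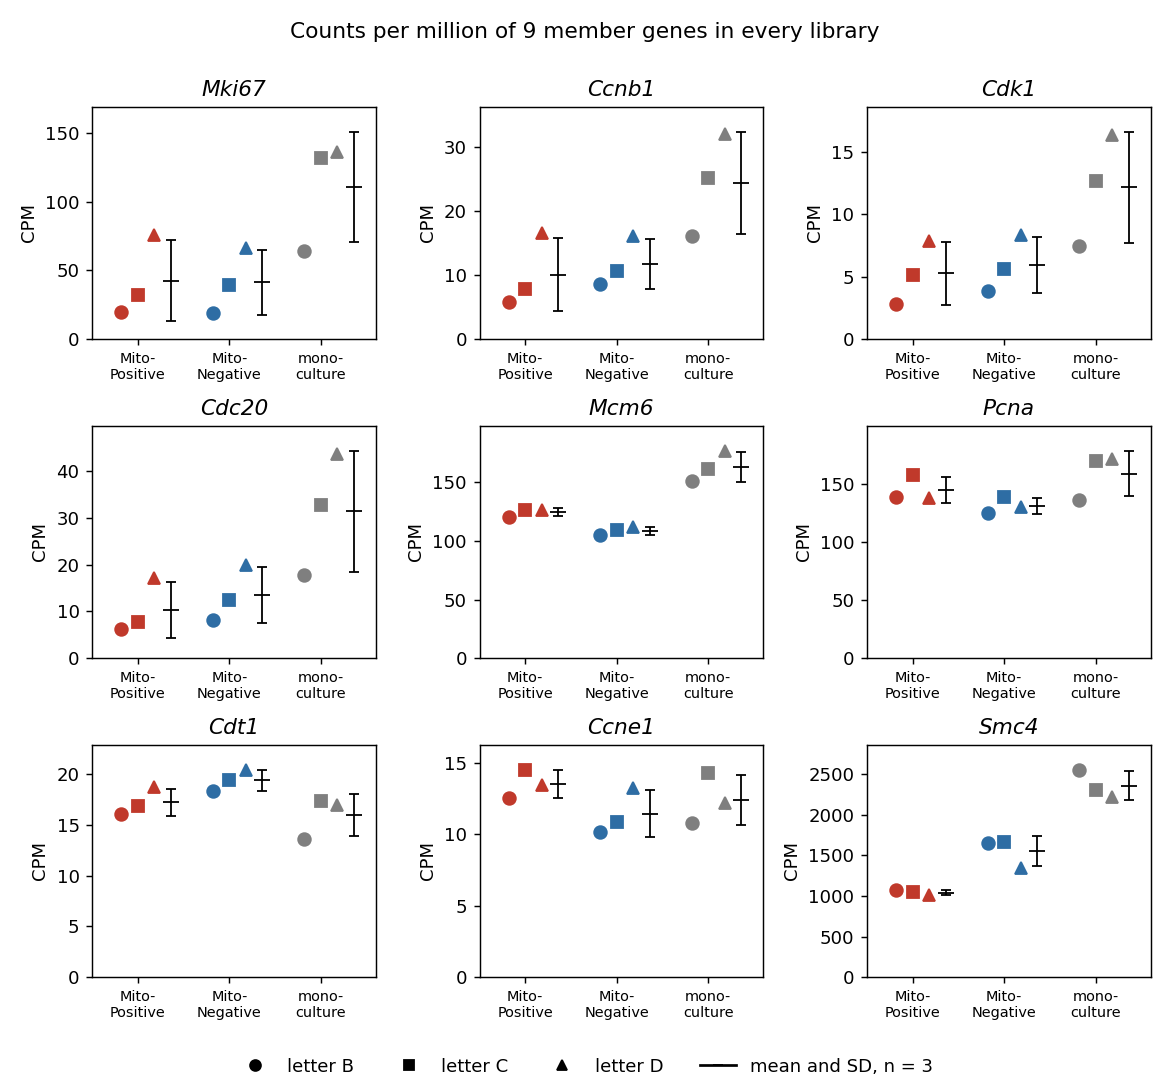
Each panel gives the CPM of 1 member gene in the 9 libraries, with MitoPositive, MitoNegative and monoculture from left to right, marker shape for the letter, and a bar for the mean and SD of 3 libraries. Smc4 is lowest in MitoPositive and highest in monoculture with no overlap, Mcm6 is lowest in MitoNegative, and Mki67, Ccnb1, Cdk1 and Cdc20 have letter B lowest and letter D highest in every group.

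The 8 genes of the mitotic kinases, checkpoint and anaphase were all below monoculture in both sorts within 3 of 3 letters. By group 0 passed in either comparison, where 19.9% of all genes were lower in MitoPositive and 18.3% in MitoNegative cells. With the block 8 passed in each, where 23.0% and 21.5% of all genes were lower. The median log2 fold change with the block was -1.67 in MitoPositive cells and -1.44 in MitoNegative cells. Birc5, survivin, which travels with Aurora B, stood at 1.59, 3.29 and 10.9 CPM in MitoPositive libraries, at 2.44, 5.10 and 10.3 CPM in MitoNegative libraries and at 8.69, 18.1 and 25.4 CPM in monoculture libraries. The D libraries of both co-cultured groups exceeded the B library of monoculture, so the groups overlapped. With the block Birc5 fell 3.90-fold in MitoPositive cells (log2 -1.96 ± 0.221, adjusted p = 0.000122) and 3.17-fold in MitoNegative cells (log2 -1.67 ± 0.217, adjusted p = 0.000342). Aurkb, the Aurora kinase of centromeres, had the smallest change of the 8 and stood at 4.69, 7.49 and 12.8 CPM in MitoPositive libraries, at 6.80, 8.33 and 11.6 CPM in MitoNegative libraries and at 10.2, 17.5 and 20.6 CPM in monoculture libraries. With the block it fell 1.99-fold in MitoPositive cells and 1.78-fold in MitoNegative cells (adjusted p = 9.3e-05 and 0.000365).

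Cdc20, which directs the anaphase-promoting complex to its substrates, stood at 6.13, 7.66 and 17.2 CPM in MitoPositive libraries, at 8.12, 12.4 and 19.9 CPM in MitoNegative libraries and at 17.8, 32.6 and 43.6 CPM in monoculture libraries. Its MitoPositive and monoculture values did not overlap. By group it gave log2 -1.60 ± 0.556 in MitoPositive cells (adjusted p = 0.0585), and with the block it fell 3.12-fold in MitoPositive and 2.34-fold in MitoNegative cells (adjusted p = 1.93e-06 and 1.65e-05). Plk1, a kinase that drives mitotic entry and exit, fell with the block, with log2 fold changes of -1.75 ± 0.182 in MitoPositive cells and -1.41 ± 0.178 in MitoNegative cells. Aurka, the Aurora kinase of the spindle poles, fell with the block too (-1.14 ± 0.129 in MitoPositive cells and -0.93 ± 0.127 in MitoNegative cells). The checkpoint kinase Bub1 had -1.47 ± 0.179 in MitoPositive cells and -1.52 ± 0.179 in MitoNegative cells, and its relative Bub1b had -1.71 ± 0.148 in MitoPositive cells and -1.50 ± 0.146 in MitoNegative cells. Ube2c, which supplies ubiquitin to the anaphase-promoting complex, had -1.73 ± 0.226 in MitoPositive cells and -1.47 ± 0.222 in MitoNegative cells.

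The 6 spindle and kinetochore genes followed, with 0 passing by group and 6 with the block in each comparison. The same shares of all genes apply, 19.9% and 18.3% by group and 23.0% and 21.5% with the block. The block medians were -1.53 in MitoPositive and -1.45 in MitoNegative cells. Cenpf, a kinetochore protein, stood at 3.03, 4.39 and 20.6 CPM in MitoPositive libraries, at 4.52, 9.32 and 19.8 CPM in MitoNegative libraries and at 16.3, 33.0 and 37.2 CPM in monoculture libraries. The MitoPositive B and C libraries had the lowest values of all, and the D libraries of both sorts lay above monoculture B. The block gave log2 -1.98 ± 0.356 in MitoPositive cells (adjusted p = 0.00331) and -1.57 ± 0.345 in MitoNegative cells (adjusted p = 0.00903). Cenpe, a kinetochore motor and the gene of this group with the smallest fold change by group, stood at 4.81, 7.39 and 18.5 CPM in MitoPositive libraries, at 5.93, 10.2 and 19.3 CPM in MitoNegative libraries and at 12.9, 25.2 and 27.5 CPM in monoculture libraries. Within letters B, C and D it differed from monoculture by log2 -1.34, -1.70 and -0.56 in MitoPositive libraries and -1.06, -1.27 and -0.50 in MitoNegative libraries, least in letter D.

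Among the other spindle genes, the motor Kif11 had block log2 fold changes of -1.54 ± 0.145 in MitoPositive cells and -1.53 ± 0.144 in MitoNegative cells. The motor Kif20a had -1.52 ± 0.144 in MitoPositive cells and -1.36 ± 0.142 in MitoNegative cells. Nusap1, which binds spindle microtubules, had -1.69 ± 0.171 in MitoPositive cells and -1.58 ± 0.17 in MitoNegative cells, and Tpx2, which assembles the spindle around Aurora A, had -1.19 ± 0.116 in MitoPositive cells and -1.08 ± 0.115 in MitoNegative cells. All 4 fell in both sorts with the block. Kif20a shares 29.3% of its exon bases with Cdc23 on the opposite strand, Ube2c 22.8% with Tnnc2, which had 14 counts in all, Ccne2 17.4% with Ints8 and Ccna2 12.5% with Exosc9, and reads of such neighbours may be among their counts.

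The 7 chromosome structure genes held 3 of the calls by group in each comparison, Smc2, Smc4 and Ncapd2. These are subunits of condensin, the ring complex that compacts chromosomes. By group 19.9% of all genes were lower in MitoPositive and 18.3% in MitoNegative cells. With the block 7 of the 7 chromosome structure genes were lower in each sort, where 23.0% and 21.5% of all genes were. Mki67, which coats mitotic chromosomes and is the standard marker of cycling cells, stood at 19.9, 32.3 and 75.6 CPM in MitoPositive libraries, at 19.1, 39.2 and 66.3 CPM in MitoNegative libraries and at 64.2, 132 and 136 CPM in monoculture libraries. Its means were 42.6 ± 29.3 CPM in MitoPositive, 41.6 ± 23.7 CPM in MitoNegative and 111 ± 40.3 CPM in monoculture libraries (SD, n = 3 each), and the D libraries of both sorts lay above monoculture B. By group the log2 fold changes were -1.38 ± 0.656 in MitoPositive cells and -1.41 ± 0.656 in MitoNegative cells (adjusted p = 0.142 and 0.14). With the block Mki67 fell 2.87-fold in MitoPositive cells (log2 -1.52 ± 0.205, adjusted p = 0.000797) and 2.89-fold in MitoNegative cells (log2 -1.53 ± 0.204, adjusted p = 0.000892).

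Top2a, the topoisomerase that untangles sister chromatids, stood at 79.9, 87.3 and 144 CPM in MitoPositive libraries, at 73.2, 94.2 and 129 CPM in MitoNegative libraries and at 113, 185 and 221 CPM in monoculture libraries. Its groups overlapped through letter D of both sorts and letter B of monoculture, and it fell with the block, with log2 fold changes of -0.74 ± 0.0934 in MitoPositive cells and -0.80 ± 0.0934 in MitoNegative cells. Smc2, the ATPase that pairs with Smc4, stood at 36.7, 45.8 and 48.5 CPM in MitoPositive libraries, at 36.8, 44.9 and 45.4 CPM in MitoNegative libraries and at 56.4, 67.4 and 67.1 CPM in monoculture libraries. Neither sort overlapped monoculture, and by group Smc2 fell, with log2 fold changes of -0.54 ± 0.118 in MitoPositive cells and -0.59 ± 0.118 in MitoNegative cells (adjusted p = 0.00365 and 0.00274). Ncapd2 fell by group 2.19-fold in MitoPositive and 2.08-fold in MitoNegative cells. Ncapg and Ncaph, further condensin subunits, fell with the block, Ncapg with -0.74 ± 0.104 in MitoPositive cells and -0.77 ± 0.104 in MitoNegative cells and Ncaph with -0.89 ± 0.121 in MitoPositive cells and -1.09 ± 0.122 in MitoNegative cells.

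Smc4, the other condensin ATPase, was the member called between the sorts. The gene lies at chr3:69004738-69034623 on the plus strand of GRCm38. Smc4 stood at 1067, 1043 and 1008 CPM in MitoPositive libraries, at 1648, 1665 and 1347 CPM in MitoNegative libraries and at 2553, 2298 and 2213 CPM in monoculture libraries. The 3 groups did not overlap, with MitoPositive lowest and monoculture highest, and here letter D was the lowest of each group. Smc4 fell 1.49-fold in MitoPositive against MitoNegative cells (log2 -0.58 ± 0.0955, adjusted p = 0.0464 by group and 0.00915 with the block). Of all genes tested, 0.0764% were called lower and 0.0891% higher by group, and 1.08% and 1.26% with the block. Against monoculture Smc4 fell 2.27-fold in MitoPositive cells (log2 -1.18 ± 0.0965, adjusted p = 2.83e-06) and 1.52-fold in MitoNegative cells (log2 -0.60 ± 0.0955, adjusted p = 0.000483).

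The calls of Smc4 against monoculture held in 25 of 25 alternative settings for each sort. Between the sorts its call held in 13 of 25, with log2 values of -0.67 to -0.52. It was lost with DESeq2 size factors, with total counts as the scale, without any 1 of the 3 MitoPositive libraries, without the B or C library of MitoNegative, without the C library of monoculture, and without letter B or C. Per kilobase of exon Smc4 was also the most abundant member, with mean levels of 199 CPM per kb in MitoPositive, 298 in MitoNegative and 452 in monoculture libraries. Its partner Smc2 had 7.97 CPM per kb in MitoPositive, 7.73 in MitoNegative and 11.6 in monoculture libraries. Smc4 made up 41.1% to 65.3% of all member counts in a library. Sums over the 44 genes had the group order of Smc4, with means of 2245, 2709 and 4201 CPM in MitoPositive, MitoNegative and monoculture libraries. Between letters they did not follow it. From letter B to D the sum rose from 2065 to 2455 CPM in MitoPositive and from 3910 to 4441 CPM in monoculture libraries, while Smc4 fell. The summed B cell markers had the same order of the 3 groups without overlap, but Ighm made up most of that sum. Between the sorts 1 of the 7 B cell markers was called lower by group and 0 higher, where 0.0764% and 0.0891% of all genes were. The part of B cells in the result on Smc4 was not tested.

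Beyond Smc4 the differences between the sorts were small, with medians above 0 in the replication genes and, in letters B and C, below 0 in the mitosis genes. In 3 of 3 letters 15 members were higher in MitoPositive than in MitoNegative libraries, where 25.2% of all genes were, and 9 were lower, where 24.7% were. Of the 15, 14 were among the 17 replication genes and the other was Ccne1. The 9 were Mcm4, Cdt1, Ccnb2, Cdk1, Aurka, Cdc20, Kif20a, Cenpe and Smc4. The median of the replication genes was log2 0.18, 0.18 and 0.15 in letters B, C and D. The median of the 14 mitosis genes was -0.26, -0.46 and 0.07, so its sign in letter D was the opposite of that in B and C.

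**Figure D4:**
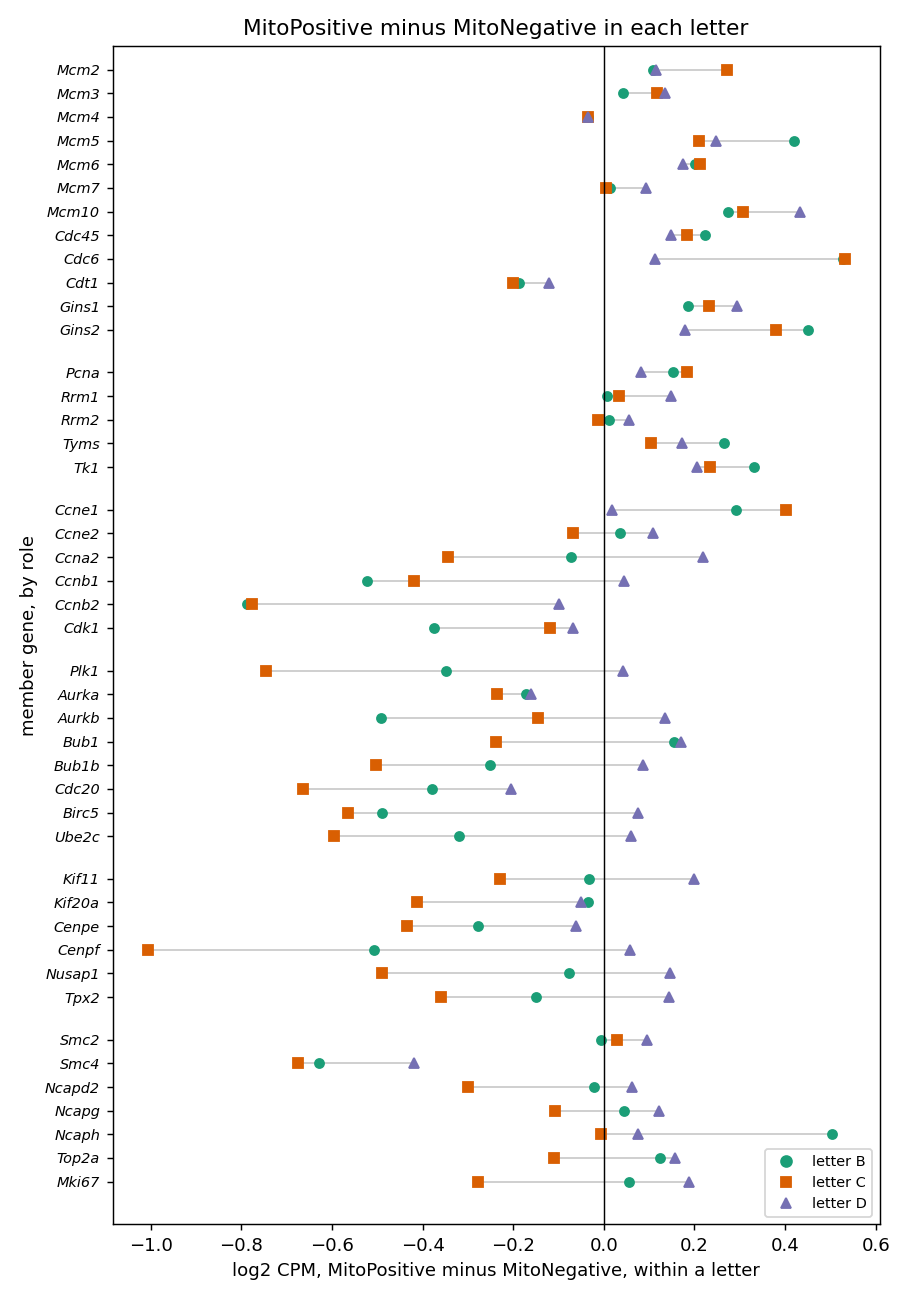
Points are log2 CPM (with 0.5 CPM added) of the MitoPositive library minus that of the MitoNegative library with the same letter, for each of the 44 member genes, with a grey line over the range of the 3 letters. Of the 17 replication genes 14 lie above 0 in every letter, Smc4 lies between -0.67 and -0.42, and the mitosis genes lie mostly below 0 in letters B and C and around 0 in letter D.

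Over all 9 libraries, on the TMM scale, edgeR's test passed no member but Smc4 between the sorts by group or with the block, while the block with total counts as the scale called 2, Mcm6 higher and Smc4 lower. An unadjusted p under 0.05 was found for 2 members by group and 12 with the block, beside 1646 and 2331 of all 15711 genes. When the sorts were fitted alone with the letter as a block, 10 members were called higher in MitoPositive cells, where 9.92% of all genes were, and 4 lower, where 8.29% were. The 10, with their log2 fold changes, were Mcm2 (0.17), Mcm3 (0.10), Mcm5 (0.30), Mcm6 (0.20), Mcm10 (0.41), Cdc6 (0.44), Gins2 (0.37), Pcna (0.14), Tk1 (0.28) and Ccne1 (0.25). The 4 were Cdt1 (-0.17), Cdc20 (-0.41), Cenpe (-0.25) and Smc4 (-0.57). In that fit the spread comes from the 6 co-cultured libraries, and in the others it is shared with monoculture. In the block fit over the 3 groups, leaving out letter D called 11 members between the sorts, Mcm5, Mcm6, Cdc6 and Ccne1 higher, where 3.37% of all genes were, and Ccnb1, Ccnb2, Plk1, Cdc20, Birc5, Cenpf and Smc4 lower, where 2.80% were. Leaving out letter B or C called 0 members and 0 of all genes.

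The letters themselves set the members apart, in a comparison added after the values were seen. In the block fit 33 of the 44 genes were higher in letter D than in letter B, where 2.77% of all genes were, and 0 were lower. They included 14 of the 14 mitosis genes and 9 of the 17 replication genes. The median log2 difference of letter D over letter B was 1.59 in the mitosis genes and 0.47 in the replication genes. Each of the 14 mitosis genes had its highest value in letter D and its lowest in letter B in all 3 groups. Among all genes tested 19.9% had that order in MitoPositive, 22.6% in MitoNegative and 20.2% in monoculture libraries. Against monoculture the median log2 difference of the mitosis genes was -1.55, -1.98 and -0.98 in letters B, C and D of MitoPositive cells and -1.36, -1.53 and -1.04 in those of MitoNegative cells, smallest in letter D of both sorts.

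Other mitosis genes, from a list of 51 that holds none of the members, were lower in 12 cases and higher in 2 in MitoPositive cells by group, where 19.9% and 22.3% of all genes were. With the block 46 were lower and 2 higher, beside 23.0% and 24.8% of all genes. In MitoNegative cells 10 were lower and 1 higher by group (18.3% and 20.6% of all genes), and 45 and 2 with the block (21.5% and 23.5% of all genes). These shares of all genes also apply to the 4 other lists of cell cycle genes. Cdc25b, a phosphatase that switches on Cdk1, stood at 10.6, 12.7 and 22.0 CPM in MitoPositive libraries, at 16.3, 19.2 and 25.5 CPM in MitoNegative libraries and at 95.3, 112 and 104 CPM in monoculture libraries. No co-cultured library came near monoculture, and Cdc25b fell 6.86-fold in MitoPositive cells (adjusted p = 0.000292) and 5.10-fold in MitoNegative cells (adjusted p = 0.000757). The motor Kif22 fell by group, with log2 fold changes of -1.61 ± 0.425 in MitoPositive cells and -1.47 ± 0.422 in MitoNegative cells. Ndc80 of the kinetochore fell with -1.20 ± 0.274 in MitoPositive cells and -1.03 ± 0.272 in MitoNegative cells, the chromatin protein Hmgb2 with -1.20 ± 0.0942 in MitoPositive cells and -1.13 ± 0.094 in MitoNegative cells, and Cks1b, a small partner of CDKs, with -1.17 ± 0.369 in MitoPositive cells and -1.27 ± 0.37 in MitoNegative cells. Pttg1, securin, which guards sister chromatid cohesion until anaphase, rose by group (0.38 ± 0.0958 in MitoPositive cells and 0.43 ± 0.0957 in MitoNegative cells), and Cdc25a rose by group in MitoPositive cells (0.18 ± 0.0592) and with the block in both sorts.

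Of 43 other replication genes, 14 were lower in MitoPositive cells and 15 in MitoNegative cells by group (21 and 24 with the block). By group 0 were higher in either, and with the block 2 were higher in MitoPositive cells and 1 in MitoNegative cells. Rpa1, which coats single-stranded DNA, fell with log2 fold changes of -0.75 ± 0.0713 in MitoPositive cells and -0.76 ± 0.0713 in MitoNegative cells. The maintenance methyltransferase Dnmt1 fell with -0.56 ± 0.108 in MitoPositive cells and -0.73 ± 0.108 in MitoNegative cells, and Pola2 of polymerase alpha with -0.43 ± 0.0805 in MitoPositive cells and -0.25 ± 0.0802 in MitoNegative cells. Timeless, of the fork protection complex, fell by group in MitoNegative cells (-0.83 ± 0.25). In MitoPositive cells it did not pass by group (-0.58 ± 0.249, adjusted p = 0.0904) and fell with the block (-0.55 ± 0.108, adjusted p = 0.00171). Of 10 genes of cohesin, its regulators and the second condensin complex, 7 were lower in MitoPositive and 7 in MitoNegative cells by group. The cohesin subunit Rad21 fell with -0.47 ± 0.0582 in MitoPositive cells and -0.42 ± 0.0582 in MitoNegative cells, Ncapd3 of the second condensin with -0.44 ± 0.0862 in MitoPositive cells and -0.46 ± 0.0862 in MitoNegative cells, and the cohesin subunit Stag1 with -0.40 ± 0.058 in MitoPositive cells and -0.27 ± 0.0579 in MitoNegative cells.

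Genes that act before S phase moved in both directions. Of 16 D cyclins, CDKs, CDK inhibitors and pocket proteins, 7 were higher and 3 lower in MitoPositive cells by group, and 6 were higher and 3 lower in MitoNegative cells. With the block 7 were higher and 5 lower in MitoPositive cells, and 6 higher and 4 lower in MitoNegative cells. Cdkn1a, the CDK inhibitor p21, stood at 194, 206 and 162 CPM in MitoPositive libraries, at 107, 107 and 111 CPM in MitoNegative libraries and at 3.52, 5.06 and 5.37 CPM in monoculture libraries. No groups overlapped, and Cdkn1a rose 40.3-fold in MitoPositive cells (adjusted p = 1.14e-08) and 23.3-fold in MitoNegative cells (adjusted p = 3.3e-08). Between the sorts it was 1.73-fold higher in MitoPositive cells (log2 0.79 ± 0.121, adjusted p = 0.0464). Cdkn1b, the inhibitor p27, fell with log2 fold changes of -0.63 ± 0.105 in MitoPositive cells and -0.46 ± 0.105 in MitoNegative cells, and Cdkn2c, the inhibitor p18, with -1.24 ± 0.222 in MitoPositive cells and -1.30 ± 0.222 in MitoNegative cells.

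Ccnd2, a D cyclin that carries cells toward S phase with Cdk4 and Cdk6, stood at 1060.2, 1019 and 905 CPM in MitoPositive libraries, at 865, 799 and 763 CPM in MitoNegative libraries and at 413, 476 and 513 CPM in monoculture libraries. It rose in both sorts, with log2 fold changes of 1.09 ± 0.0949 in MitoPositive cells and 0.79 ± 0.0944 in MitoNegative cells. Ccnd3 rose with 1.11 ± 0.0835 in MitoPositive cells and 0.72 ± 0.083 in MitoNegative cells, and Ccnd1, at no more than 2.40 CPM in any library, with 2.73 ± 0.548 in MitoPositive cells and 2.82 ± 0.547 in MitoNegative cells. The D cyclins were thus higher in both sorts. Cyclins A and B were lower in those sorts within letters and with the block, and passed no test by group. With the block alone, Ccnd3 and Cdk6 were also higher in MitoPositive than in MitoNegative cells (0.39 ± 0.0855 and 0.36 ± 0.0739, adjusted p = 0.0443 and 0.0367).

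Of 16 genes for E2F factors, MuvB subunits, B-Myb and FoxM1, 4 were higher and 3 lower in MitoPositive cells by group, and 1 was higher and 1 lower in MitoNegative cells. With the block 4 were higher and 8 lower in MitoPositive cells, and 2 higher and 5 lower in MitoNegative cells. E2f1 rose by group in MitoPositive cells (0.55 ± 0.115). In MitoNegative cells it did not pass by group (0.30 ± 0.115, adjusted p = 0.0558) and rose with the block (0.31 ± 0.0908, adjusted p = 0.0178). E2f2 fell in both sorts, with -1.20 ± 0.211 in MitoPositive cells and -0.94 ± 0.209 in MitoNegative cells, E2f5 rose in both, with 0.32 ± 0.11 in MitoPositive cells and 0.46 ± 0.109 in MitoNegative cells, and the MuvB subunit Lin9 fell in MitoPositive cells (-0.38 ± 0.0895). Foxm1, the factor of the mitosis genes, stood at 3.11, 4.63 and 9.30 CPM in MitoPositive libraries, at 3.63, 6.59 and 8.60 CPM in MitoNegative libraries and at 8.47, 12.8 and 14.7 CPM in monoculture libraries. It had letter B lowest and letter D highest in each group, passed no test by group, and fell with the block, with -1.16 ± 0.15 in MitoPositive cells and -0.98 ± 0.148 in MitoNegative cells. Mybl2, B-Myb, fell with the block too, with -0.57 ± 0.113 in MitoPositive cells and -0.72 ± 0.113 in MitoNegative cells.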

How the data were processed

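Total RNA of 9 libraries was depleted of ribosomal RNA and made into libraries with the KAPA HyperPrep kit, per the labels' protocols. The authors deposited whole-number read counts per gene, not normalized. Per the submitters' processing notes, featureCounts, STAR 2.7, cutadapt, bcl2fastq and DESeq2 were used with the build GRCm38, and the strand setting of the counting is not given in the sources used here. Totals were 53546152 to 74722832 counts, and 99 spike-in rows with 0 counts were left out.

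Counts of 55421 genes were filtered with filterByExpr (minimum count 10, minimum total 15), which kept 15711, scaled with TMM and tested with edgeR 4.0.16's quasi-likelihood test in R 4.3.3 over all 3 groups, with Benjamini-Hochberg adjustment and a threshold of 0.05. The fit by group leaves 6 residual degrees of freedom, and the fit with the letter as a block leaves 4. Same-letter libraries deviated together: the correlations for letters B, C and D were 0.600, 0.485 and 0.639 between MitoPositive and MitoNegative, 0.397, 0.0947 and 0.242 between MitoPositive and monoculture, and 0.328, 0.203 and 0.127 between MitoNegative and monoculture. With 1 of these under 0.1 the pairing of MitoPositive with monoculture rests on the shared letter alone, so both fits are printed. Within-letter differences add 0.5 CPM. The edgeR fits by group and with the block were run on simulated data for each of the 3 comparisons. Those counts were drawn from a fitted model with letter effects, so they cannot show which fit suits the real libraries.

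Values per library are given for members called between the sorts, for those with the largest and smallest fold change of MitoPositive against monoculture in each role, for members that passed against the direction of their role, and for a few standard markers. Per-library values of Mcm6 and Cdc20, and the names Pttg1, Cdc25a and Cdk6, were added after their values were seen. The members and lists were chosen with earlier results of these data known. Alternatives were DESeq2 1.42.0 (test and size factors), limma 3.58.1 (voom), total counts as the scale, no filter, the compared groups alone, and each library or letter left out. Promoters came from RefSeq and exon overlaps from the annotation.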

Additional observations from a re-analysis of the deposited data

Results flagged for a closer look

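Smc4 differed between the sorts when the difference itself was tested, with a log2 fold change of -0.58 in MitoPositive against MitoNegative cells. Cdkn1a, the CDK inhibitor p21, differed the other way in the same test, with a log2 fold change of 0.79. Both calls had adjusted p = 0.0464 by edgeR's quasi-likelihood test by group. In each, the values of all 3 MitoPositive libraries lay on 1 side of all 3 MitoNegative libraries. The call of Smc4 held in 13 of 25 alternative settings and that of Cdkn1a in 14 of 25, and neither changed sign in any of them.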

How the results depend on the processing

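No called member value changed its sign under the alternatives run. Uncalled member values did, in 102 cases between the sorts, and in 12 and 3 cases in MitoPositive and MitoNegative cells against monoculture. The median log2 fold change of the members between the sorts was 0.03. It became 0.30 without the D library of MitoNegative and -0.25 without the D library of MitoPositive. Treating the letter as a replicate block raised the members called from 7 to 34 in MitoPositive and from 11 to 39 in MitoNegative cells against monoculture, and all genes called between the sorts from 26 to 367. Further block fits gave, against monoculture, 33 members in MitoPositive and 39 in MitoNegative cells with the compared groups alone, 34 and 39 with DESeq2 size factors, 34 and 38 with total counts, and 34, 33 and 36, and 39, 36 and 38, with letters B, C and D left out. DESeq2's own test called 16 members in MitoPositive cells. Between the sorts the 1 member called became 0 with DESeq2 size factors and with total counts, 14 with the block and the sorts alone, 2 with the block and total counts, and 0, 0 and 11 with the block and letters B, C and D left out. All genes called between the sorts were 15 with DESeq2 size factors, 14 with total counts, 171 with no filter, 418 with DESeq2's test, 68 with limma voom, 65 with the sorts alone, 2810 with the block and the sorts alone, 365 and 230 with the block and DESeq2 size factors or total counts, and 0, 0 and 969 with the block and letters B, C and D left out. Of calls between the sorts 53.85% were higher, beside 66.67% with DESeq2 size factors and 71.43% with total counts. Leaving out 1 library or letter by group gave 0 to 1 members and 0 to 120 genes between the sorts, 4 to 20 members and 4122 to 6695 genes in MitoPositive cells against monoculture, and 4 to 20 members and 3495 to 6037 genes in MitoNegative cells. The cause of these shifts was not tested. A group left with 1 fewer library borrows its spread from the others. The block fits with a letter left out or another scale were chosen after seeing the data.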
